A study of Mus musculus with 2 samples.

Results

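Serpina3n, C4b, C3, Mug1, Lcn2 and Mup18 are 6 acute-phase and complement genes that had been picked, among the 32285 genes of 2 single-cell libraries, for differing between the epithelium of Lkb1_Het polyps and that of normal WT duodenum. Their choice used that contrast, so their values in epithelium describe the genes and were not tested. All 6 are listed in both count tables, and Mup18 had 0 UMIs in every cell class of the WT library. Levels and shares of cells were then read in epithelial types, fibroblasts, macrophages and T cells, with every cell classed by UMIs (unique molecular identifiers, each standing for 1 captured mRNA molecule) of marker genes that did not include the 6.

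The Lkb1_Het library came from polyps of 3 Lkb1flox/+;Myh11-Cre/ERT2 mice, labelled heterozygous for Lkb1. The WT library came from healthy duodenum of 3 Lkb1+/+;Myh11-Cre/ERT2 mice. Both groups thus carried the tamoxifen-inducible Cre under the Myh11 promoter, which is active in smooth muscle and related stromal cells. The labels used here gave no age, and the deletion was aimed at stroma, not at the epithelium described here. The tissue of the 3 mice of a group was pooled into 1 library with no mark of the mouse, so there was no replicate and no test was run. Both samples carry duodenum as their tissue label, which does not settle the site of the polyps.

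The acute-phase response is the change in secreted proteins that follows infection or injury. It is best known in liver, where IL-6 family cytokines acting through gp130 and STAT3, together with IL-1 and the C/EBP and NF-kB factors, switch on protease inhibitors, complement components and metal-binding proteins. Complement is a cascade of plasma proteins in which C4 and C3 are cleaved and deposited on surfaces, and regulators such as factor I and factor H hold it back. Epithelium and fibroblasts of many organs make part of this set locally.

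The 6 members fill different roles. Serpina3n (ENSMUSG00000021091, chr12:104406729-104414329, plus strand, GRCm38/mm10) encodes a secreted inhibitor of serine proteases. Mug1 (ENSMUSG00000059908, chr6:121838541-121889057, plus strand) encodes murinoglobulin 1, a broad protease trap of the alpha-2-macroglobulin family, to which C3 and C4 also belong. C4b (ENSMUSG00000073418, chr17:34728380-34743882, minus strand) encodes the C4 of the classical and lectin pathways, and C3 (ENSMUSG00000024164, chr17:57203970-57228136, minus strand) the component on which all complement pathways meet. Lcn2 (ENSMUSG00000026822, chr2:32384633-32388252, minus strand) encodes lipocalin 2, which binds bacterial siderophores and so withholds iron. Mup18 (ENSMUSG00000078674, chr4:61670177-61674136, minus strand) encodes a major urinary protein, a lipocalin that carries small ligands and is best known from liver. All 6 are annotated as protein-coding genes, and the libraries count reads near the 3′ end of their last exons.

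The stretches just before the starts of Serpina3n, Mug1, Mup18 and C3 are printed because the first 3 had 6 or fewer UMIs in WT epithelium and C3 was lower in polyp fibroblasts. They are RefSeq sequences of GRCm38.p6, 5′ to 3′ on the gene's strand, ending before the first annotated start of the gene. They span chr12:104406458-104406645, chr6:121838291-121838495, chr4:61674137-61674344 and chr17:57228137-57228386. Capitals mark the C/EBP letters TTNNGNAA on either strand.

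Serpina3n: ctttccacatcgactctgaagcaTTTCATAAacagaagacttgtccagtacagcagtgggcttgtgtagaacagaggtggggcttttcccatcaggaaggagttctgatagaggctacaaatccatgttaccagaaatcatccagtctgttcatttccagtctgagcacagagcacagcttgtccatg
Mug1: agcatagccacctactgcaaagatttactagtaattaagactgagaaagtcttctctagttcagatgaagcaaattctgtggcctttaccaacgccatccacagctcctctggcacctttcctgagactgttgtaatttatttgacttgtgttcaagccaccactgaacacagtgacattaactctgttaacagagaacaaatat
Mup18: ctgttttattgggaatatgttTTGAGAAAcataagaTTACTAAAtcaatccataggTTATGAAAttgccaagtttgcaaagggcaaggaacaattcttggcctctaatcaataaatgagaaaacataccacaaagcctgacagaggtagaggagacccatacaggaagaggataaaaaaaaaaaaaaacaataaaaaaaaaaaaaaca
C3: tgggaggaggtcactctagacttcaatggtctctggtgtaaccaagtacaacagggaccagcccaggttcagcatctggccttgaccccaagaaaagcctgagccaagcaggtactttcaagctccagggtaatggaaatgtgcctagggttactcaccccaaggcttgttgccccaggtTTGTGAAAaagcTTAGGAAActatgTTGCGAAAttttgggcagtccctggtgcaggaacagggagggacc

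In the 250 bases before the RefSeq start, the C/EBP letters occurred in 4 of the 5 members with a promoter entry, Serpina3n, C3, Lcn2 and Mup18, and in 36.8% of 32851 promoters of that length. C3 held them at 3 places between 70 and 38 bases before its start, 1 of them readable on both strands. Mug1 held none. The NF-kB letters (GGG, any 5 bases, CC), searched on both strands and overlapping no C/EBP match in these windows, occurred in Serpina3n, C3 and Lcn2, and in 45.8% of all promoters. The STAT letters TTCNNNGAA and the letters TATAAA occurred in 0 of the 5, against 7.02% and 12.4% of all promoters. These are matches of letters and describe no binding.

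Of 14327 barcodes in the polyp library and 9950 in the WT library, 8460 and 3252 passed the filters, and 7887 and 3167 were left after doublet removal, with 50499537 and 21398025 UMIs. The limit on mitochondrial UMIs was exceeded by 39.1% of barcodes in the polyp library and 64.9% in the WT library. Epithelium held 4010 polyp and 923 WT cells, with a median of 7495.5 and 11803 UMIs per cell. The polyp library had 190 fibroblast-class, 211 macrophage-class and 425 T-class cells, and the WT library had 36, 19 and 801. Stk11, the gene of LKB1, stood at 38.6 CPM (UMIs of a gene per 1000000 UMIs of the class) in polyp cells and 28.2 CPM in WT cells, and at 3 and 2 UMIs in smooth muscle, so it could not check the labels. The libraries shared 44 barcodes, 9 of them in polyp and 6 in WT epithelium.

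The epithelium of the 2 libraries was made up of different cells. Summed markers of gastric surface mucous cells stood at 85346 CPM in polyp and 7823 CPM in WT epithelium, and enterocyte markers at 117 CPM in polyp and 20595 CPM in WT epithelium. The 6 epithelial markers, which set the class and so cannot check it, summed to 4818 CPM in polyp and 6750 CPM in WT epithelium. Of the 6 hepatocyte markers, which would mark stray liver cells, Fgb and Serpina1c were at 0 in polyp epithelium, Ahsg and Fgb at 0 in WT epithelium, and their sum was 128 CPM in polyp and 60.02 CPM in WT, with a median of 0 per cell in both. Summed fibroblast markers were 10.2 CPM in polyp and 0.99 CPM in WT epithelium, and macrophage markers 8.25 CPM in polyp and 15.7 CPM in WT. The part of stray fibroblast RNA in the C4b, C3 and Serpina3n levels of polyp epithelium was not tested. The part of the different makeup of cell types in the member ratios was not tested over the whole epithelium, and matched types are given further on.

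Over all epithelial cells, the protease inhibitors were close to absent from WT and abundant in the polyp. Mug1 had 14350 UMIs, or 342 CPM (336–348), in polyp epithelium against 6 UMIs, or 0.46 CPM (0.17–0.997), in WT epithelium, a ratio of 746 (343–2034). Serpina3n had 2244 UMIs, 53.5 CPM (51.3–55.7), in polyp epithelium and 0 UMIs in WT epithelium, at least 233-fold higher against a floor of 3 UMIs for the class. Intervals here and below are exact 95% intervals that cover counting error only, Poisson for levels, conditional binomial for ratios and Clopper-Pearson for shares.

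Both complement members were also higher, by different folds. C4b had 7845 UMIs, 187 CPM (183–191), in polyp and 17 UMIs, 1.30 CPM (0.76–2.08), in WT epithelium, a ratio of 144 (89.9–247). C3 had 204 UMIs, 4.86 CPM, in polyp and also 17 UMIs, 1.30 CPM, in WT epithelium, a ratio of 3.74 (2.28–6.55). The interval of the C4b ratio lay wholly above that of C3, which had equal UMIs in WT but far fewer in the polyp. Averaging CPM over cells gave a C3 ratio of 2.04.

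The lipocalins also differed. Mup18 had 2289 UMIs, 54.6 CPM (52.3–56.8), in polyp epithelium and 0 in WT epithelium, at least 238-fold higher. Lcn2 had 108 UMIs, 2.57 CPM (2.11–3.11), in polyp and 46 UMIs, 3.51 CPM (2.57–4.69), in WT epithelium, a ratio of 0.73 (0.51–1.06), so its difference was within counting error. All 46 WT UMIs lay in 9 cells. The members past 2-fold with an interval clear of 1 were 5 of 6, where 18.9% of the 13960 genes measured in epithelium were past it upward and 13% downward. Since the members were picked on this contrast, nothing is read from that count.

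**Figure D1:**
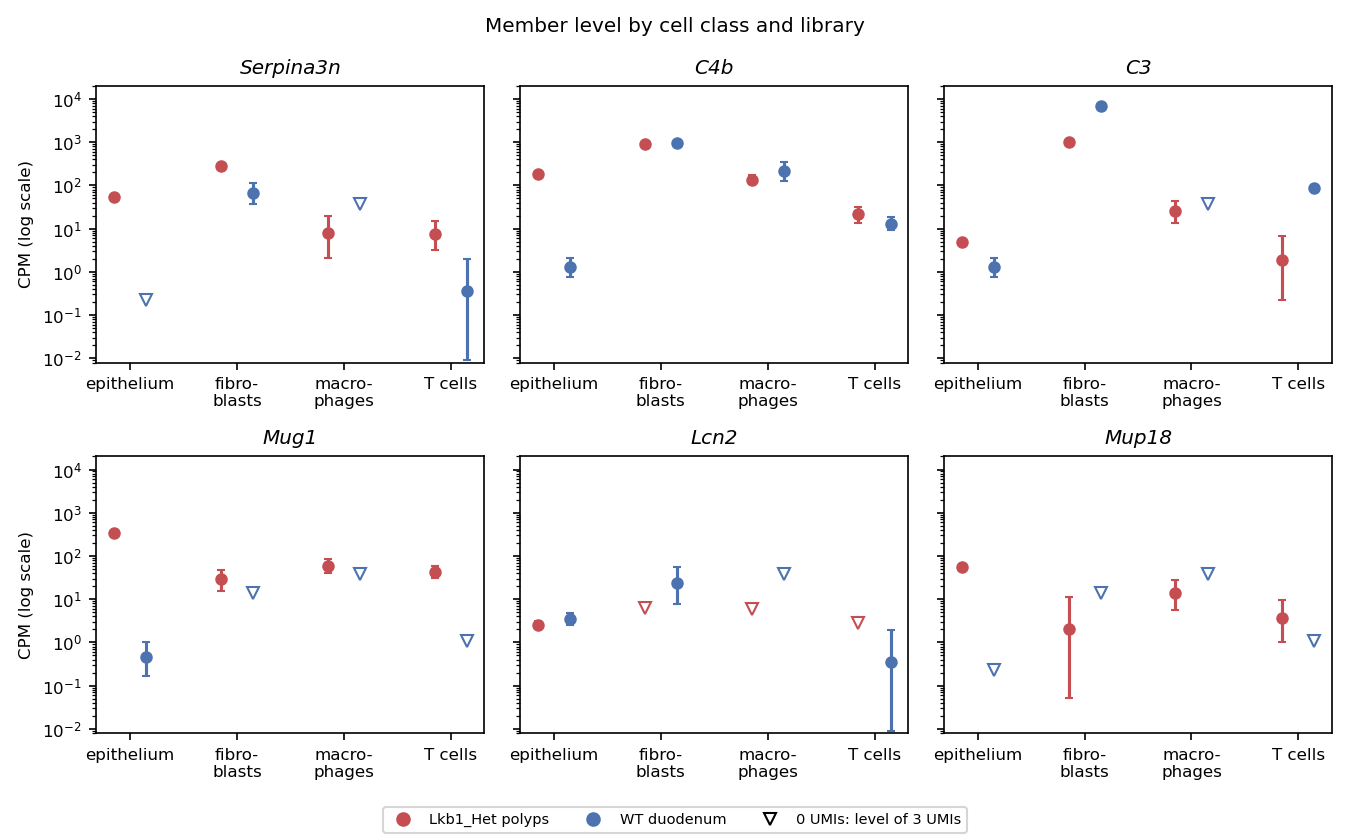
Level of each member, in CPM on a log axis, in epithelium, fibroblasts, macrophages and T cells of the Lkb1_Het polyp library (red, left) and the WT duodenum library (blue, right), with exact 95% Poisson bars for counting error; open triangles stand for 0 UMIs and are drawn at the level of 3 UMIs. C4b and C3 are highest in fibroblasts of both libraries, Mug1 and Mup18 in polyp epithelium, and 247 of the 252 C3 UMIs of WT T cells lie in 1 barcode. That barcode also held 124 UMIs of Dcn, a fibroblast marker, and 77 UMIs of the mesothelial markers named further on. Without it, WT T cells stood at 1.79 CPM of C3.

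Droplet libraries carry free RNA, and T cells, which should not make these proteins, gave its level. Cells were thinned to 1000 UMIs each for this, leaving out 417 polyp and 182 WT epithelial cells that were shallower. C4b was then found in 21.2% (19.9–22.6) of polyp epithelial cells, 2.13% (0.98–4.01) of polyp T cells and 0.13% of WT epithelial cells. Mug1 was found in 25.2% (23.8–26.7) of polyp epithelial cells, 4.27% (2.55–6.66) of polyp T cells and 0% of WT epithelial cells. Both thus exceeded the free-RNA level of their own library, and Mug1 had the highest such level of the 6.

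Serpina3n was found in 4.70% (4.03–5.45) of thinned polyp epithelial cells, against 0.71% (0.15–2.06) of polyp T cells. Mup18 was found in 4.98% (4.29–5.75) of polyp epithelial cells, against 0.24% (0.0060–1.31) of polyp T cells. Neither had a UMI in the 741 thinned WT epithelial cells, which allows a share of cells with a UMI at this depth of up to 0.405% (3 of 741) and sets no limit on cells that express the genes. C3 was found in 0.64% (0.41–0.96) of polyp epithelial cells, 0.24% of polyp T cells and 0.40% of WT epithelial cells, and Lcn2 in 0.28%, 0% and 0.27%, so at this depth neither stood above the free-RNA level. Without thinning, the shares of polyp epithelial cells were 15.4% for Serpina3n, 49.3% for C4b, 3.94% for C3, 47.9% for Mug1, 0.70% for Lcn2 and 20.7% for Mup18. In polyp T cells the unthinned shares were 1.88%, 5.18%, 0.47%, 10.4%, 0% and 0.94%, at a median of 2231 UMIs per cell.

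**Figure D2:**
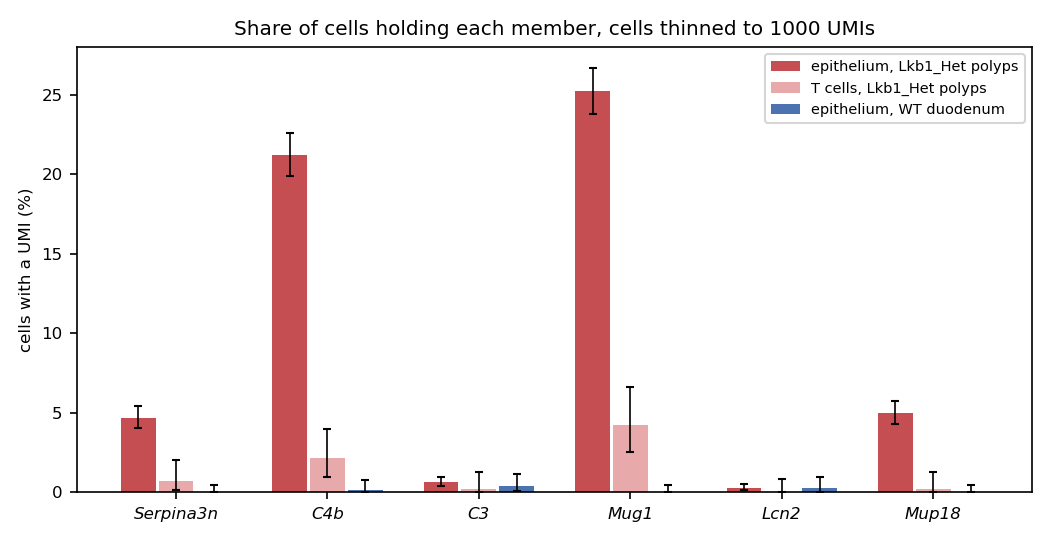
Share of cells with at least 1 UMI of each member after thinning to 1000 UMIs per cell, in percent, in polyp epithelium (red), polyp T cells (light red) and WT epithelium (blue), with exact 95% binomial bars. Serpina3n, C4b, Mug1 and Mup18 stand above the T-cell share of the same library in polyp epithelium, and C3 and Lcn2 stay under 1% in all 3.

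Polyp epithelium held most UMIs of these members in its library: 95.6% for Mug1, 96.0% for Mup18, 90.3% for Serpina3n and 89.1% for C4b, but 25.6% for C3. Within it, Lcn2 was the most concentrated, with 50% of its UMIs in 4 cells and 28 UMIs, 25.9%, in 1 cell. For Serpina3n 94 cells held 50% of the UMIs, for Mup18 128 cells, for Mug1 294 cells and for C4b 405 cells. C4b was thus spread over the most cells of the 6, and no cell held more than 26 of its UMIs.

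Which epithelial cells held the members was read from 12 types set by marker scores, each a range of a score and not a sharp class. In the polyp library 1052 cells were Muc6 gland-like, 632 gastric surface mucous-like, 348 regenerative-like, 287 cycling-like, 246 enteroendocrine-like and 68 crypt-like. A further 1213 cells, at a median of 2851 UMIs, reached no type, and 426 of these, 120 of the gland-like and 102 of the regenerative-like cells lay within 0.1 of the score limit. The 5 leading genes of the gland-like cells included Cblif, Pgc and Muc6, products of deep gastric glands. These 3 are among the markers that set the type, so their lead is by construction. Serpina3n, which is in no marker list, was also among the 5. Other classes' markers ran through all these cells: the median gland-like cell had 112369 CPM of gland, 49351 CPM of surface mucous and 8163 CPM of regenerative markers, and the median regenerative-like cell had 50748, 29627 and 16456 CPM.

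Serpina3n was the member most bound to 1 type. Gland-like cells, 26.2% of polyp epithelial cells with 22.5% of their UMIs, held 85.2% of its UMIs at 202 CPM (193–211). Crypt-like cells followed at 81.4 CPM (63.0–104) and regenerative-like cells at 23.2 CPM (18.5–28.6). Surface mucous-like cells had 4.23 CPM (3.05–5.72), no more than the 7.52 CPM of polyp T cells. After thinning, 15.4% of gland-like and 0.54% of surface mucous-like cells held a Serpina3n UMI.

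C4b and Mug1 reached more types. C4b stood at 402 CPM (389–415) in gland-like, 314 CPM (277–356) in crypt-like, 305 CPM (287–323) in regenerative-like and 278 CPM (253–305) in enteroendocrine-like cells, and at 35.8 CPM in surface mucous-like and 18.0 CPM in goblet-like cells. The intervals of crypt-, regenerative- and enteroendocrine-like cells overlapped, while gland-like cells lay above and surface mucous-like cells below all 3. Mug1 stood at 876 CPM (812–942) in crypt-like, 678 CPM (662–695) in gland-like and 673 CPM (647–700) in regenerative-like cells, and at 92.9 CPM in enteroendocrine-like and 59.3 CPM in surface mucous-like cells. Enteroendocrine-like cells, the hormone cells of the mucosa, thus ranked with crypt- and regenerative-like cells for C4b but far below them for Mug1.

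Mup18 followed another order. It was highest in regenerative-like cells, at 121 CPM (110–132), a state named for Clu, Anxa1 and Ly6a, which mark epithelium after injury. Cells of no type had 78.7 CPM (73.1–84.5) and crypt-like cells 69.1 CPM (52.2–89.7), whose intervals overlapped, and gland-like cells 45.3 CPM (41.1–49.8). Surface mucous-like cells had 34.6 CPM (31.0–38.4) of Mup18, below the 54.6 CPM of the whole polyp epithelium. With 23.7% of all polyp epithelial UMIs, they held 14.98% of the Mup18 UMIs, against 1.87% of those of Serpina3n. C3 was highest in regenerative-like cells at 9.17 CPM (6.35–12.8) and gland-like cells at 7.30 CPM (5.68–9.23), with overlapping intervals, and 75.9% of Lcn2 UMIs lay in cells of no type.

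**Figure D3:**
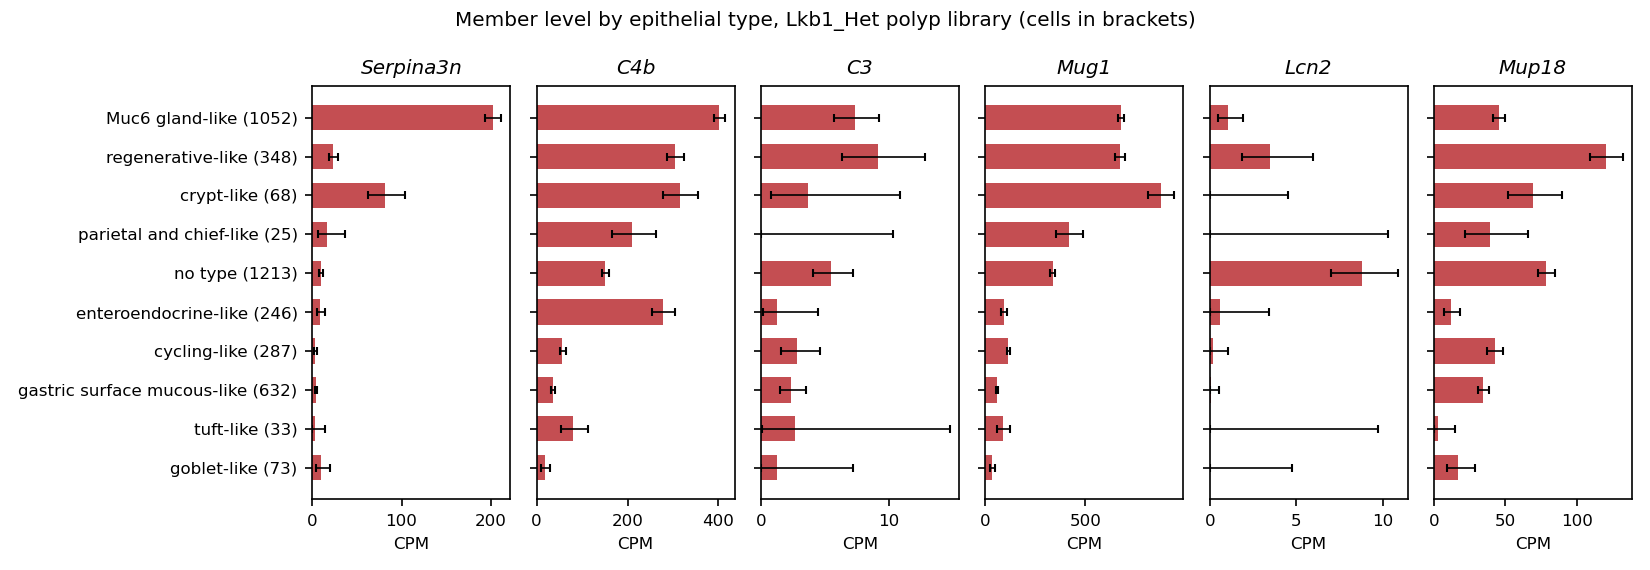
Level of each member by epithelial type of the Lkb1_Het polyp library, in CPM with exact 95% Poisson intervals for counting error. Serpina3n peaks in gland-like cells at 202 CPM, Mug1 in crypt-like cells at 876 CPM and Mup18 in regenerative-like cells at 121 CPM.

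Cells of the 2 libraries with the same type label could be set side by side in a few cases; the label is a score and does not make them the same cells. In crypt-like cells, 68 in the polyp and 74 in WT, Mug1 had 710 UMIs in the polyp and 0 in WT, at least 525-fold higher. C4b had 255 UMIs in polyp and 1 UMI in WT crypt-like cells, a ratio of 565 (101–22409), and Serpina3n had 66 and 0, at least 48.8-fold higher. Mup18 had 56 UMIs in polyp and 0 in WT crypt-like cells, at least 41.4-fold higher, whereas C3 had 3 and 2 UMIs, a ratio of 3.32 (0.38–39.8). C3 could thus not be resolved in crypt-like cells. The values of matched types, here and below, are part of the epithelial values on which the members were picked. They describe where the UMIs lay and give no separate support.

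Gland-like cells numbered 1052 in the polyp and 21 in WT. Of the markers that set the type, Cblif, Pgc and Muc6 were among the first 5 leading genes in the polyp. In WT these were Muc6, Tff2 and Aqp5, and 4 of the gland markers were 2-fold over other epithelium. Serpina3n in the polyp and Gkn3 in WT, which are not gland markers, were also among the first 5. All 6 Mug1 UMIs of WT epithelium lay in these 21 cells. Mug1 stood at 678 CPM in polyp and 13.2 CPM in WT gland-like cells, a ratio of 51.4 (23.6–140). C4b stood at 402 CPM in polyp and 8.80 CPM, from 4 UMIs, in WT gland-like cells, a ratio of 45.6 (17.8–168). Serpina3n was at least 30.6-fold and Mup18 at least 6.85-fold higher, each against 0 UMIs in WT. The WT duodenum thus held a little Mug1 and C4b in its own gland-like cells, below the polyp level with intervals apart. In enteroendocrine-like cells, 246 in the polyp and 37 in WT, C4b had 452 UMIs in the polyp and 0 in WT, at least 24.0-fold higher, and Mug1 was at least 8.03-fold higher. Serpina3n, with 14 UMIs in the polyp and 0 in WT, and Mup18, with 19 and 0, were not resolved there. In goblet-like cells, 73 and 82, C4b had 14 UMIs and 1 UMI, a ratio of 17.8 (2.71–754). In cells of no type, 1213 in the polyp and 85 in WT, C4b, Mug1 and Mup18 were at least 21.7-, 48.4- and 11.3-fold higher and Serpina3n at least 1.39-fold. C3 had a ratio of 0.47 (0.19–1.51) there, and Lcn2, with 82 UMIs in the polyp and 33 in WT, one of 0.11 (0.08–0.18). All 33 WT UMIs of Lcn2 lay in 2 cells, and 65 of the 82 in the polyp lay in 5 cells. The Lcn2 ratio thus rested on a few cells, and its interval does not cover the spread between them.

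Whether the members lay in the same cells was read after thinning, in 3593 polyp epithelial cells. C4b was held by 49.7% (41.9–57.5) of the 169 cells with a Serpina3n UMI and by 19.8% (18.5–21.2) of those without. Mug1 was held by 49.6% (46.0–53.2) of the 762 cells with C4b and by 18.7% of those without, and by 60.9% (14 of 23) of cells with C3 against 24.99% of those without. Of the 15 pairs, 7 had a higher share beside the partner with intervals apart. No pair had a lower share with intervals apart, but Mup18 was in 1.78% (0.37–5.10) of the cells with Serpina3n and 5.14% (4.42–5.93) of those without.

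Fewer pairs stood apart within single types, which also held fewer cells. Within the 955 thinned gland-like cells 2 of 15 pairs kept intervals apart: C4b with Serpina3n, at 46.3% against 30.5%, and Mug1 with C4b, at 52.2% against 31.98%. Mug1 with Serpina3n, at 47.9% against 24.1% over the epithelium, was at 46.3% against 37.3% in gland-like cells, with intervals that overlapped. In regenerative-like cells 0 of 14 pairs had intervals apart, and in cells of no type 4 of 15. At this depth 14.4% of polyp epithelial cells held 2 or more of the 6 members, against 0.47% (2 of 422) of polyp T cells, and 60.1% held none. With all UMIs, 1 cell held all 6.

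**Figure D4:**
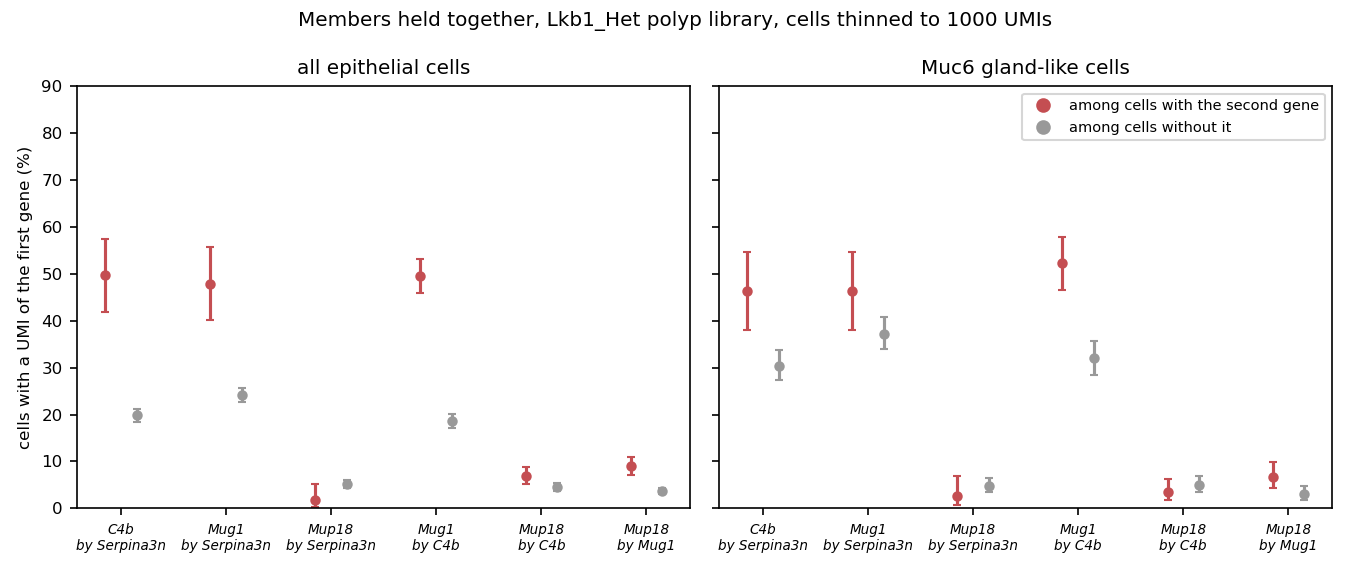
Share of thinned polyp cells with the member named first under each pair, in percent, among cells with (red, left) and without (grey, right) the member named second. Panels show all epithelium and Muc6 gland-like cells, with exact 95% binomial bars. C4b beside Serpina3n and Mug1 beside C4b keep separate intervals in gland-like cells.

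Fibroblasts are a known local source of complement, and both libraries showed them as such. C3 stood at 1003 CPM (916–1096; 489 UMIs) in the 190 polyp fibroblasts and at 6767 CPM (6421–7128; 1427 UMIs) in the 36 WT fibroblasts, a ratio of 0.148 (0.13–0.16), or 6.75-fold (6.08–7.49) lower in the polyp. C4b stood at 911 CPM (828–1000) in polyp and 939 CPM (813–1079) in WT fibroblasts, a ratio of 0.97 (0.82–1.15). Serpina3n stood at 275 CPM (134 UMIs) in polyp and 66.4 CPM (14 UMIs) in WT fibroblasts, a ratio of 4.14 (2.38–7.78). So Serpina3n was past 2-fold higher and C3 past 2-fold lower, where 7.8% of 4618 genes measured in fibroblasts were past it upward and 7.1% downward.

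The C3 difference also showed in the share of cells and in single cells. After thinning, 43.9% (36.2–51.9) of polyp and 87.5% of WT fibroblasts held a C3 UMI, and the median cell had 342 CPM in the polyp and 4159 CPM in WT. The WT class was small and uneven: 3 cells held 50% of its C3 UMIs, against 21 cells in the polyp, and 1 WT cell had 395 UMIs. Markers of mesothelium, the lining of the outer gut wall, moved with it. These markers (Msln, Upk3b, Lrrn4, Wt1, Upk1b and Bnc1) were chosen after the values were seen, and summed to 129 CPM in polyp and 1437 CPM in WT fibroblasts. At least 1 of them had a UMI in 2 of 190 polyp and 7 of 36 WT fibroblasts, and the 7 WT cells held 935 of the 1427 C3 UMIs.

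Without the cells that held such a marker, C3 stood at 951 CPM in 188 polyp and 3573 CPM in 29 WT fibroblasts, a ratio of 0.27 (0.23–0.30), or 3.76-fold (3.30–4.28) lower in the polyp. The share after thinning was 42.0% in polyp and 84.0% in WT. Serpina3n was then at 279 CPM in polyp and 72.6 CPM in WT fibroblasts, a ratio of 3.84 (2.02–8.19), and C4b at 907 and 813 CPM. C3 and Serpina3n thus kept their direction, and the C4b ratio of 1.12 lay on the other side of 1. Leaving out cells with an Epcam, Krt8 or Krt18 UMI, which left 53 polyp and 16 WT fibroblasts, gave ratios of 1.94 for C4b and 0.25 for C3.

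**Figure D5:**
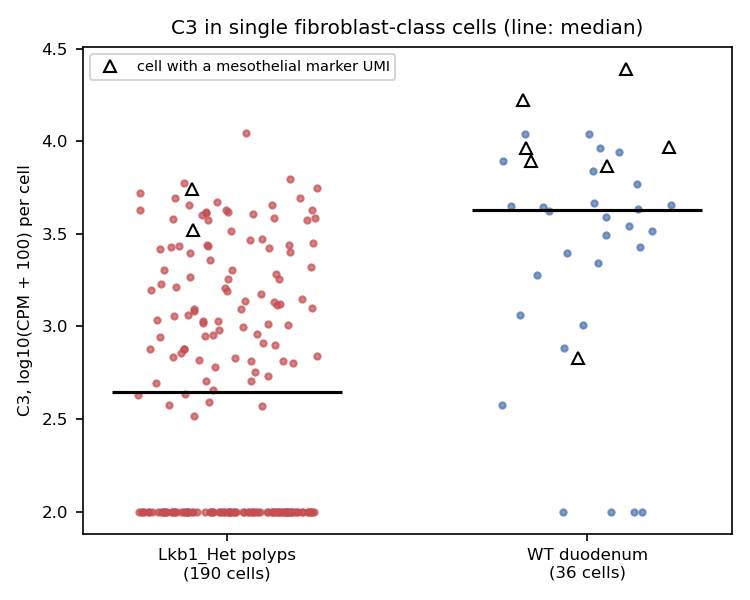
C3 in each fibroblast-class cell of the Lkb1_Het polyp library (left, 190 cells) and the WT duodenum library (right, 36 cells), as log10(CPM + 100), with the median as a line and cells holding a mesothelial marker UMI as triangles. Many polyp cells lie at 0 CPM, and most WT cells lie above the polyp median.

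Fibroblasts held 61.4% of all C3 UMIs in the polyp library and 83.1% in WT. Per UMI, C3 in polyp fibroblasts was 206-fold its level in polyp epithelium, C4b 4.87-fold and Serpina3n 5.14-fold. The CPM of C4b and Serpina3n was thus higher in fibroblasts, while most of their UMIs lay in the far more numerous epithelial cells. Mug1 at 28.7 CPM and Mup18 at 1 UMI in polyp fibroblasts did not exceed the 43.2 and 3.76 CPM of polyp T cells and were read as free RNA. In thinned polyp fibroblasts, C4b was held by 69.7% of the 33 cells with Serpina3n and 45.0% of those without. C3 was held by 56.1% of cells with C4b and 31.7% of those without. For C3 and Serpina3n the shares were close, with C3 in 42.4% of cells with Serpina3n and 44.3% of those without. No intervals were computed for these shares.

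Macrophages of the polyp held C4b and C3 above the level of polyp T cells. C4b stood at 135 CPM (69 UMIs) in 211 polyp and 214 CPM (17 UMIs) in 19 WT macrophages, a ratio of 0.63 (0.37–1.15), within counting error. C3 stood at 25.5 CPM (13.6–43.6; 13 UMIs) in polyp macrophages and 0 UMIs in WT, against 1.88 CPM (0.23–6.79) in polyp T cells, although after thinning the shares of 2.94% and 0.24% had overlapping intervals. Mug1 was found in 2.35% of thinned polyp macrophages, below the 4.27% of polyp T cells. By CPM it stood at 58.8 in polyp macrophages, 43.2 in polyp T cells and 64.2 in polyp B cells. Mup18 stood at 13.7 CPM (7 UMIs) in polyp macrophages and 3.76 CPM (4 UMIs) in polyp T cells. The free-RNA level thus may differ between classes, which was not tested. Lcn2 had 0 UMIs in both macrophage classes. With 19 WT cells, a member at 0 there could not be told from a low level.

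Lcn2 reached its highest CPM outside epithelium, although polyp epithelium held 67.1% of its UMIs. Neutrophil-like cells of the polyp, 21 cells, had 480 CPM from 14 UMIs, and endothelium, 47 cells, had 190 CPM from 29 UMIs. Of those 29 UMIs, 28 lay in 2 cells, with 483 and 89 UMIs of lymphatic endothelial markers (Lyve1, Mmrn1, Ccl21a, Flt4, Prox1 and Reln, chosen after the values were seen). Another cell with 11 Lcn2 UMIs counted as epithelium but had 198 lymphatic marker UMIs. The highest cell of polyp epithelium, with 28 Lcn2 UMIs, had all 6 epithelial markers and 226 UMIs of Reg3g and 313 of Reg3b, antimicrobial lectins of the gut, beside 22 of Mug1.

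Reads from a stretch that close relatives share cannot be assigned to 1 gene by their sequence, and how they were counted was not tested. Of the 50-base windows in the last 500 bases of its annotated transcripts, Mup18 shared 88.9% with 1 or more of 20 other genes, C4b 23.9% with C4a, Mug1 17.1% with 4 genes, and Serpina3n, C3 and Lcn2 0%. In polyp epithelium C4a had 7 UMIs beside 7845 of C4b, Mug2 had 1 UMI beside 14350 of Mug1, and Serpina3g, the only other Serpina3 gene with a UMI, had 18 beside 2244 of Serpina3n. Mup18 held 59.5% of the Mup family's UMIs, and 16 of 21 other Mup genes had the remaining 1561. The level of Mup18 is therefore uncertain within its family, whereas C4b, Mug1 and Serpina3n carried nearly all UMIs of theirs.

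Other genes of the same pathways were taken from 14 lists, with the members left out and genes under 20 UMIs in the class not counted. In epithelium 78 listed genes were measured, of which 41 were past 2-fold higher and 13 past 2-fold lower in the polyp, against 18.9% and 13% of all genes. The lists were chosen with earlier results of these data known. Nothing is therefore read from this count, and the list counts below are descriptions. In the Mup list the 6 measured genes had 0 UMIs in WT epithelium. They met the limit of 20 UMIs through the polyp alone, so their being past 2-fold higher was fixed in advance. Mup9 stood at 17.1 CPM in polyp, at least 74.6-fold higher, and Mup10, Mup17 and Mup11 were at least 31.4-, 17.7- and 14.4-fold higher. Given the shared windows above, these counts may not be separate from those of Mup18, which was not tested. Mup9 was held differently from Mup18 among polyp types, with 46.6% of its UMIs in gland-like cells against 18.7% of those of Mup18. A2m, the parent protease trap of the murinoglobulins, was at least 4.99-fold higher. With 48 UMIs in polyp and 0 in WT epithelium, its direction was likewise fixed in advance. Serpina3g was not past the limit.

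Inhibitors of complement were higher in 6 of 10 measured genes and lower in 0, with a median log2 ratio of 2.69 beside 0.07 over all genes. Cfi, the protease factor I that cleaves C3b and C4b, stood at 202 CPM in polyp and 9.77 CPM in WT epithelium, a ratio of 20.7 (17.4–24.8). Clu, a chaperone that blocks the terminal complex and also a marker of the regenerative type, stood at 6228 and 175 CPM, a ratio of 35.6. The membrane regulators Cr1l and Cd55 had ratios of 1.32 and 1.497, inside the limit. The classical and lectin list had 5 of 7 genes higher and 1 lower, the protease C2, at 2.002 CPM in polyp and 4.81 CPM in WT, and the higher ones included C1qa and C1qb, which are macrophage markers. All 6 macrophage markers had UMIs in polyp epithelium, and Csf1r and Adgre1 were at 0 in WT epithelium; the part of stray macrophage RNA in the C1q values was not tested.

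Of the alternative pathway, Cfb, the factor B that forms the C3 convertase, had a ratio of 0.66 and Cfp, properdin, one of 2.96, past the limit. Of the terminal list C8g alone was measured, at 0.79, and of the complement receptors Itgam, a myeloid integrin, at 0.17. C4b and most measured inhibitors were thus higher in the polyp, while factor B and C8g were inside the limit.

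Among other acute-phase genes 4 of 12 were higher and 4 lower, with a median log2 ratio of -0.32. Lrg1, a secreted leucine-rich glycoprotein, stood at 459 CPM in polyp and 8.02 CPM in WT epithelium, a ratio of 57.3 (47.3–70.1). The metallothioneins Mt1 and Mt2 had ratios of 0.60 and 0.87, and the zinc importer Slc39a14 one of 0.30, past the limit downward. Among partners in iron handling 4 of 6 were higher and 1 lower: Bdh2, an enzyme linked to a mammalian siderophore, had 53.6 CPM in polyp and 2.83 CPM in WT, and Ltf, lactoferrin, a ratio of 5.75. Of the ferritin chains, Fth1 had 3142 CPM in polyp and 18229 CPM in WT, a ratio of 0.17, and Ftl1 a ratio of 0.79. Of the other lipocalins 1 of 2 measured was higher, the retinol carrier Rbp4, which had 45.4 CPM in polyp and 1.22 CPM in WT, with 90.5% of its polyp UMIs in enteroendocrine-like cells.

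Receptors for acute-phase cytokines were higher in 6 of 10 measured genes and lower in 1, with a median log2 ratio of 1.86. Il6st, the shared gp130 chain, stood at 21.8 CPM in polyp and 4.43 CPM in WT epithelium, a ratio of 4.92. Tnfrsf1a and Il10rb had ratios of 0.87 and 1.03, and Il17rc was lower at 0.37. Transcription factors and feedback genes were split, 4 of 13 higher and 4 lower: Cebpd had a ratio of 2.35 and Nfkbia one of 0.48, both past the limit, and Cebpb and Nfkbiz had 0.68 and 1.17. Named after their values were seen, Stat3 and its feedback inhibitor Socs3 had 3.09 and 2.95.

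The cytokines themselves were low in epithelium. Of 7 measured, 4 were higher and 1 lower, Tnf, at 7.10 CPM in polyp and 14.6 CPM in WT epithelium; Ctf1, Il1b and Lif had ratios of 2.10, 7.65 and 1.07. Chosen after their values were seen, the T-cell cytokines stood higher: Il22 stood at 137 CPM (146 UMIs) in polyp and 20.3 CPM (57 UMIs) in WT T cells, a ratio of 6.77 (4.95–9.36), and Il17a at 317 and 35.6 CPM, a ratio of 8.91 (7.11–11.2). Il1b in macrophages stood at 657 CPM in polyp and 327 CPM in WT, a ratio of 2.01 (1.35–3.12). Il6 in fibroblasts stood at 105 and 71.1 CPM, a ratio of 1.47 (0.81–2.82), and Il11 had 32 UMIs in polyp and 0 in WT fibroblasts, at least 4.61-fold higher.

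In fibroblasts 1 of 3 measured classical and lectin genes, the 1 alternative gene and the 1 terminal gene were past the limit downward, where 7.1% of all genes were, and of 6 inhibitors 0 were lower and 2 higher. The lower ones were C2, with a ratio of 0.10, Cfb with 0.14 and C7 with 0.20. Without the cells that held a mesothelial marker, C2 was at 0.45 (0.18–1.17) and Cfb at 0.68 (0.35–1.42), no longer past the limit, and C7 at 0.14 (0.05–0.31). Clu had a ratio of 3.74, past it upward, from 798 CPM in polyp and 213 CPM in WT fibroblasts, but polyp T cells held 862 CPM of it, so its fibroblast level was read as free RNA. C1s1 and Serping1 had ratios of 0.89 and 0.58. The lists' counts in macrophages rested on 19 WT cells. There Clu had 784 CPM in polyp and 0 UMIs in WT, at least 20.8-fold higher and again no more than in polyp T cells. Of 3151 genes measured in macrophages, 7.27% were past the limit upward and 4.03% downward.

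Among polyp epithelial types, the listed genes with the most UMIs were spread over several places. Of 38 such genes, members left out, 10 were highest in gland-like, 7 in regenerative-like and 6 in enteroendocrine-like cells. Lrg1 stood at 1082 CPM in gland-like, 784 CPM in crypt-like, 684 CPM in regenerative-like and 150 CPM in surface mucous-like cells. Cfi stood at 361, 343, 309 and 78.4 CPM in the same 4 types. Il6st stood at 36.3 CPM in gland-like, 32.1 CPM in regenerative-like and 9.67 CPM in surface mucous-like cells.

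Likeness of pattern was taken as Pearson's r of log2(CPM + 10) over 30 groups of class, type and library with at least 20 cells, among 7653 genes. The groups come from 2 libraries and share their depth and free RNA, so r is a description. The genes most like Mug1 were Lrg1 (0.94), Cfi (0.92), Cxcl17 (0.90), Reg3b (0.90) and Depp1 (0.89). For Mup18 they were Mug1 (0.85), Reg3b (0.84), Lrg1 (0.83), Samd5 and Bdh2. For Serpina3n they were Col27a1 (0.83), Timp1 (0.82), C4b (0.82), Ccn2 and Ndrg2, and for C4b Gas6 (0.88), Scara3 (0.84), Anxa1, Tceal8 and Gprc5b. C3 was most like Htra3 (0.95), Ggt5 (0.94), the mesothelial marker Msln (0.93), Igfbp6 and Gpc3. The genes listed for C3, C4b and Serpina3n had their highest level in fibroblasts, and those for Mug1 and Mup18 in epithelial types of the polyp, except Depp1, which was highest in endothelium. Lcn2 was most like Rnf144a (0.85), highest in neutrophil-like cells, followed by Hlx, Rasip1, Sh2b2 and Sh3tc1.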

How the data were processed

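Single-cell 3′ libraries (10x Genomics v3) were made from collagenase-digested tissue, per the labels' protocols, 1 for polyps of 3 Lkb1_Het mice and 1 for duodenum of 3 WT mice. The deposited values were counts of UMIs per gene and barcode, per the file headers. The submitters' processing notes name Cell Ranger 3.0.0 and mm10, whereas the matrix header names cellranger-5.0.0; the annotation release is not given in the sources used here. Of 32285 features, 32158 IDs were found in GENCODE M21, used for positions.

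Barcodes were kept with at least 500 UMIs, 250 genes and at most 25% mitochondrial UMIs. Scrublet (scanpy 1.11.5) marked 0 doublets by its automatic threshold, so the highest scores up to an expected 0.8% per 1000 cells were removed, 573 in the polyp and 85 in the WT library. A class needed UMIs of at least 3 of its 6 markers and more than any other class; cells over 5% haemoglobin or pancreatic acinar UMIs were set apart, and 2463 polyp and 854 WT cells were left unassigned. An epithelial type needed the highest mean z score (clipped at 3) of its markers, at least 0.5, over the epithelium of both libraries; the members were in no marker list. Levels are summed UMIs in CPM, and a gene at 0 was set to 3 UMIs for a fold. A gene counted as higher or lower at 2-fold with an interval clear of 1. For shares, cells were thinned without replacement to 1000 UMIs (seed 1). Median log2 ratios had 0.5 UMIs added.

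With 1 library per group no test was possible, and intervals do not cover differences between mice or preparations. The members, markers and lists were chosen with earlier results of these data known. Named genes were the members, up to 4 genes with most UMIs per list, their close paralogs and the 5 genes most like each member; others are said to have been chosen after their values were seen. Promoters were RefSeq GRCm38.p6; C4b had no entry. Other cell filters, marker rules, scalings, thinning depths and limits were tried, with values computed in Python 3.11.15, numpy 2.4.6, scipy 1.17.1, pandas 2.3.3 and matplotlib 3.10.9. The ratio and its interval were tested on simulated counts.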

Additional observations from a re-analysis of the deposited data

Results flagged for a closer look

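The C3 ratio of polyp over WT pointed in opposite directions in 2 cell classes: it was 3.74 in epithelium and 0.148 in fibroblasts. With 1 library per group this difference between classes was not tested. Epithelial C3 was not above the free-RNA level after thinning and had a ratio of 2.04 with CPM averaged over cells. Its ratio was 0.47 (0.19–1.51) in cells of no type, with an interval that held 1. It was 3.32 (0.38–39.8) in crypt-like cells, from 3 and 2 UMIs. In gland-like cells it was at least 1.10, against 0 UMIs in WT. The crypt- and gland-like values cannot show whether C3 was past 2-fold there. In fibroblasts the mesothelial marker sum of 129 CPM in polyp and 1437 CPM in WT moved with C3.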

How the results depend on the processing

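No ratio changed from one called direction to the other under any alternative; of the 205 values computed, those of the leading results that moved past the counting interval or by over 1.5 times follow, as polyp over WT. In epithelium, without a cell filter Lcn2 was at 1.20, Serpina3n at least 1225, Mug1 1333 and Mup18 at least 415; with a strict filter Serpina3n was at least 123 and Mup18 at least 126; with CPM averaged over cells C4b was at 86.3, C3 at 2.04 and Mug1 at 1330. Leaving out the 10 cells with most UMIs of a member removed most or all WT UMIs by its construction: C4b was at 469, C3 at 12.6, and, with 0 WT UMIs left, Mug1 at least 1429 and Lcn2 at least 2.66. In Muc6 gland-like cells alone, an alternative chosen after seeing the data, Serpina3n was at least 30.6, C4b 45.6, C3 at least 1.10, Mug1 51.4, Lcn2 at least 0.16 and Mup18 at least 6.85. In fibroblasts, without cells holding Epcam, Krt8 or Krt18 C4b was at 1.94 and C3 at 0.25. Also chosen after seeing the data, fibroblasts without the 10 highest cells per library (of 190 polyp and 36 WT cells) gave Serpina3n 11.7 (2 WT UMIs left), C4b 1.63 and C3 0.28, which is no check of stability, and without mesothelial-marker cells C3 0.27. The gland-like type held the most UMIs of 4 members, and of 1 under the stricter type rule, which left 441 gland-like cells and 2780 of no type. Pairs with intervals apart went from 7 to 3 when thinned to 500 UMIs and to 2 in gland-like cells. Listed genes lower in epithelium numbered 13 at 2-fold and 4 at 4-fold, where 6.28% of all genes were lower, by the higher limit itself. The cause of the other shifts was not tested. No paired analysis was possible because each group had 1 library. Depth limits C3 and Lcn2 in epithelium, and 36 fibroblasts and 19 macrophages limit every WT value of those classes.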
